A study of Rattus norvegicus with 8 samples.

Results

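The motor protein genes of the rat hypothalamus are described here, namely the kinesins, the kinesin light chains, the cytoplasmic dynein subunits, the dynactin subunits and the unconventional myosins. Members were taken by name from the site table: a polyadenylation site belonged when its biotype was protein_coding and its symbol began with Kif, Klc, Myo or Dctn followed by a digit, or with Dync or Dynl. The rule found 444 of 73922 sites and 57 of 12255 genes, with 24 kinesin, 3 kinesin light chain, 12 dynein, 6 dynactin and 12 myosin genes. It used no measured value. A pair of its names needs care, since Kif1bp encodes a kinesin-binding protein rather than a motor, and Kif4b is listed as protein_coding in the table but as a pseudogene in RefSeq.

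Motor proteins turn the energy of ATP into movement along the cytoskeleton. Most kinesins carry vesicles, mitochondria and RNA along microtubules towards the synapse, dynein with its activator dynactin carries cargo back towards the cell body, and myosins move along actin in spines, terminals and the cell cortex. Neurons, with their long axons and dendrites, depend on this transport, and in the hypothalamus it also moves the dense-core vesicles that hold neuropeptides.

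Hypothalamic RNA was taken from adult male rats of the outbred Long-Evans strain, 8 in all, with 1 library for each rat. In the obesity group, 4 rats had free access to a high fat diet and were labelled as having diet-induced obesity, and in the control group 4 rats ate standard rodent chow. Tissue was taken after 36 days of diet. The publication that cites this series reports another treatment of rats, so the diet groups rest on the labels alone. The method, whole transcriptome termini site sequencing (WTTS-seq), reads the 3′ ends of polyadenylated RNA, so that 1 read counts as 1 end and a gene with several alternative polyadenylation (APA) sites has a count at each of them. Counts are not scaled by transcript length, and levels are given in CPM, the read count as a share of the TMM-scaled library size.

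The libraries held 1417531 to 1957726 reads, of which 8294 to 11749 lay at motor protein sites. Motor proteins thus took 78903 of 13341135 reads (0.591%). The median motor protein site had 57 reads over all libraries, and 229 of 444 sites (51.6%) were read in every library, against 55.2% of all sites. The libraries numbered 1 stood apart, with 86 motor protein sites at 0 reads in control and 64 in obesity, against 29 to 41 in the other libraries. Of 9 hypothalamic neuropeptide genes checked, including Avp, Pmch and Hcrt, all had reads in every library. Avp, Oxt and Sst were lower in obesity without overlap, where groups did not overlap for 3.52% of all genes. Avp was at 812 to 1174 CPM in control and 601 to 798 CPM in obesity. Oxt was at 51.7 to 74.4 and 21.5 to 44.5 CPM, and Sst at 9.68 to 24.0 and 3.40 to 9.25 CPM. The other neuropeptide genes overlapped, and the part of these differences in the motor protein values was not tested. The summed level of 3 measured anterior pituitary markers was 124 CPM in obesity library 2 and 5.95 to 55.8 CPM in the other libraries, and the choroid plexus marker Ttr was at 95.2 CPM in obesity library 4 and at 0 to 1.49 CPM elsewhere. Prl, Tshb, Folr1, Kl and Otx2 of these lists were not analysed here, and the part of such tissue in the motor protein values was not tested. In bulk tissue, fewer cells of a type and less RNA per cell cannot be told apart.

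The main comparison asked whether motor protein genes differed in total reads between diet-induced obesity and control. No motor protein gene differed at an adjusted p under 0.1 in edgeR's quasi-likelihood test, where 0.0% of all 12255 genes did. At an unadjusted p under 0.05 there were 5 of 57 genes (8.77%), against 5.3% of all genes, with Kif26b higher (1 gene, against 2.77% of all) and Myo5a, Kif5b, Kif17 and Dync1i2 lower in obesity (4 genes, against 2.52%). Groups did not overlap for 4 motor protein genes, against 3.52% of all genes, and these were Myo5a, Kif5b and Kif17 on the lower side (1.67% of all genes) and Kif21b on the higher side (1.84%). The median log2 fold change was -0.02 over motor protein genes and 0.01 over all genes.

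The labels number the rats 1 to 4 in each group, and same-numbered libraries deviated together. When the number entered the edgeR fit as a block, 1 motor protein gene passed an adjusted p under 0.1, against 0.122% of all genes. That gene was Myo5a, with a log2 fold change of -0.81 and an adjusted p of 0.0940. At an unadjusted p under 0.05 the blocked fit gave 7 motor protein genes (12.3%), against 10.9% of all genes. Of these 6 were lower, against 5.83% of all genes, and 1 was higher, against 5.03%. Besides the 5 genes already named, Dctn1 and Myo10 were among them.

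**Figure D1:**
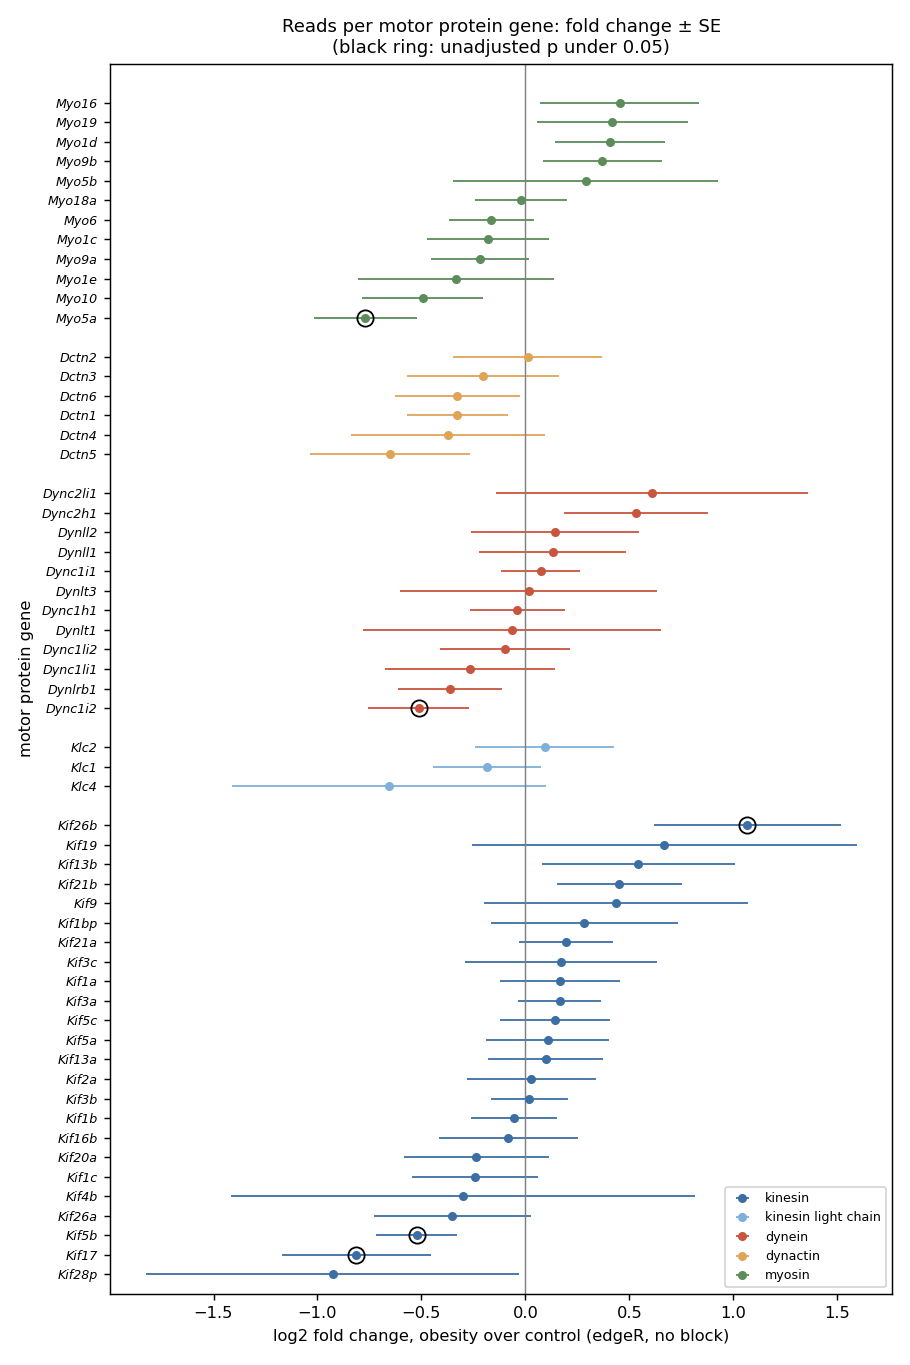
Log2 fold change of each of the 57 motor protein genes (obesity over control, edgeR without block), with bars of 1 SE, grouped and coloured by family. Black rings mark the 5 genes with an unadjusted p under 0.05. The kinesins spread on both sides of 0, while 5 of 6 dynactin genes lie below it, as do 29 of all 57 genes.

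Among the myosins, Myo5a had the lowest p for a difference in total reads, and the most reads in control. It encodes myosin Va, which carries endoplasmic reticulum, vesicles and RNA along actin into dendritic spines and nerve terminals. Its 10 sites on the plus strand of chromosome 8 (82097582 to 82156883, Rnor_6.0) held 305, 423, 301 and 423 reads in the controls, in the order of the rats' numbers, and 202, 246, 154 and 269 in obesity. Every obesity library thus lay below every control library, also after scaling to library size, and each below the control of its number. The gene level was 259.7 ± 43.7 CPM in control and 152.6 ± 47.4 CPM in obesity (SD, n = 4 each). The log2 fold change was -0.77 (SE 0.25), with an unadjusted p of 0.00587 and an adjusted p of 0.904 in edgeR without the block. In the blocked fits that left out both libraries of a number, the log2 fold change ranged from -0.93 to -0.61. The adjusted p was then 0.0960 without number 1, 0.00446 without number 2, 0.475 without number 3 and 0.503 without number 4, so that without number 3 or number 4, and so with 6 libraries, the call was lost. Without number 1, 0.049% of all genes passed, and Myo5a was the only motor protein gene among them. Without number 2, however, calls were frequent throughout, with 3 motor protein genes against 4.63% of all genes and 3 motor protein sites against 0.495% of all sites.

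Of the 10 sites of Myo5a, 8 had a fold change below 0, and sites 3 and 10 held 490 of the 581 reads by which the obesity libraries were lower in sum (84.3%). Its most used site, site 3 counted from the 5′ end (82113571 to 82113625), held 54.3% of the gene's reads, with 76, 253, 177 and 289 reads in control and 75, 138, 71 and 182 in obesity. These groups overlapped. The most 3′ site, site 10 (82156843 to 82156883), had 122, 60, 50 and 44 reads in control and 39, 26, 16 and 34 in obesity, without overlap. Its log2 fold change was -1.33 (SE 0.44), with an unadjusted p of 0.00872 in edgeR. Site 10 held 20.3 ± 13.4% of Myo5a reads in control and 13.2 ± 4.18% in obesity, a difference smaller than the spread between control libraries.

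The other myosins with most reads were Myo18a, which links the Golgi to actin, and Myo6, the myosin that walks towards the minus end of actin and serves endocytosis. Myo18a had 186.6 ± 41.7 CPM in control and 183.9 ± 24.8 CPM in obesity. Myo6 had 193.7 ± 19.97 CPM and 173.0 ± 29.4 CPM. The log2 fold changes were -0.02 (SE 0.22) and -0.16 (SE 0.21), both smaller than their errors, and the groups overlapped. In obesity both genes were above Myo5a in mean level. Myo5a supplied 21.7 ± 3.18% of the myosin reads in control and 14.4 ± 4.03% in obesity, lower in 4 of 4 numbers. The groups overlapped, with control 1 at 17.8% and obesity 2 at 18.5%. That share was not tested, since Myo5a had been named for its p in the same libraries. Myo10, the myosin of filopodia, had 286, 146, 105 and 173 reads in control and 169, 114, 120 and 116 in obesity, and these overlapped.

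Of the kinesins, Kif5b and Kif17 were lower and Kif26b higher at an unadjusted p under 0.05, while the abundant Kif3a, Kif5a and Kif3b gave differences within their errors. Kif5b is the widely expressed heavy chain of kinesin-1, the classical motor for mitochondria and vesicles in axons, and Kif5a and Kif5c are its neuronal relatives. Kif5b, on the plus strand of chromosome 17 (54181793 to 54219056), had 404, 516, 420 and 506 reads in control and 251, 336, 386 and 377 in obesity. All obesity libraries were below all control libraries. Its level was 330.9 ± 37.2 CPM in control and 230.2 ± 35.4 CPM in obesity, a log2 fold change of -0.52 (SE 0.20). The unadjusted p was 0.0160 in edgeR (0.0559 without control 4), and with the block the adjusted p was 0.168. DESeq2's Wald test with the block, an alternative chosen after the data were seen, gave Kif5b an adjusted p of 0.0467 and Myo5a 0.0123, 2 of the 27 motor protein genes to which it gave an adjusted p, against 5.05% of all such genes. In the same test 3 of 34 motor protein sites passed, against 6.46% of all such sites, and for genes and sites these shares are near the background.

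The 3 kinesin-1 heavy chains did not share one direction. Kif5a had 276, 576, 421 and 705 reads in control and 346, 456, 552 and 905 in obesity, with a log2 fold change of 0.11 (SE 0.29). Kif5c had 267, 592, 266 and 330 reads in control and 219, 431, 494 and 525 in obesity, with a log2 fold change of 0.14 (SE 0.27). Both groups overlapped widely for these genes. Kif5b made up 42.7%, 30.6%, 37.9% and 32.8% of all Kif5 reads in control and 30.8%, 27.5%, 27.0% and 20.9% in obesity. That share was lower in 4 of 4 numbers, although the 2 groups overlapped by 1 library (control 2 against obesity 1). It was not tested, since the genes were singled out after their values were seen.

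Kif3a and Kif3b form the kinesin-2 motor that serves axonal transport and cilia. Kif3a had the most reads of all motor protein genes, 10792 in all, of which site 4 of 8 took 76.5%. Its level was 875.8 ± 130.6 CPM in control and 981 ± 183 CPM in obesity, with a log2 fold change of 0.16 (SE 0.20). Kif3b was at 324.8 ± 39.7 CPM and 329 ± 17.4 CPM, with a log2 fold change of 0.02 (SE 0.19). Kif3a supplied 69.1 ± 3.01% of Kif3 reads in control and 70.3 ± 6.88% in obesity.

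Kif17 and Kif26b were rarer. Kif17, a kinesin-2 motor known for carrying NMDA receptor subunits in dendrites, had 44, 33, 38 and 44 reads in control and 20, 18, 34 and 25 in obesity. In CPM the groups were apart, at 28.7 ± 5.09 and 16.2 ± 2.23. The log2 fold change was -0.81 (SE 0.36), with an unadjusted p of 0.0359 in edgeR. Of its reads, 11.7% lay at a site on the opposite strand, whose gene assignment is uncertain. Without that site the unadjusted p was 0.0748, and it was also above 0.05, up to 0.0871, when any library but control 2 or obesity 3 was left out. Of the other 2 sites the most 3′ one had 22, 6, 4 and 9 reads in control against 0, 0, 5 and 4 in obesity. This site reached the lowest total of any site, 30 reads, mainly through control, so its counts add no support to the p of the gene. Kif26b, a kinesin-like protein of cell adhesion and developmental signalling, had 13, 11, 11 and 21 reads in control and 21, 24, 34 and 47 in obesity. Each obesity library exceeded the control of its number, though control 4 lay within the obesity range in CPM. Its log2 fold change was 1.07 (SE 0.45), with an unadjusted p of 0.0294 in edgeR, and all 5 of its sites had a fold change above 0 while none of them had an unadjusted p under 0.05. The p of the gene was above 0.05, up to 0.113, without control 1, 2 or 3 or obesity 4.

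**Figure D2:**
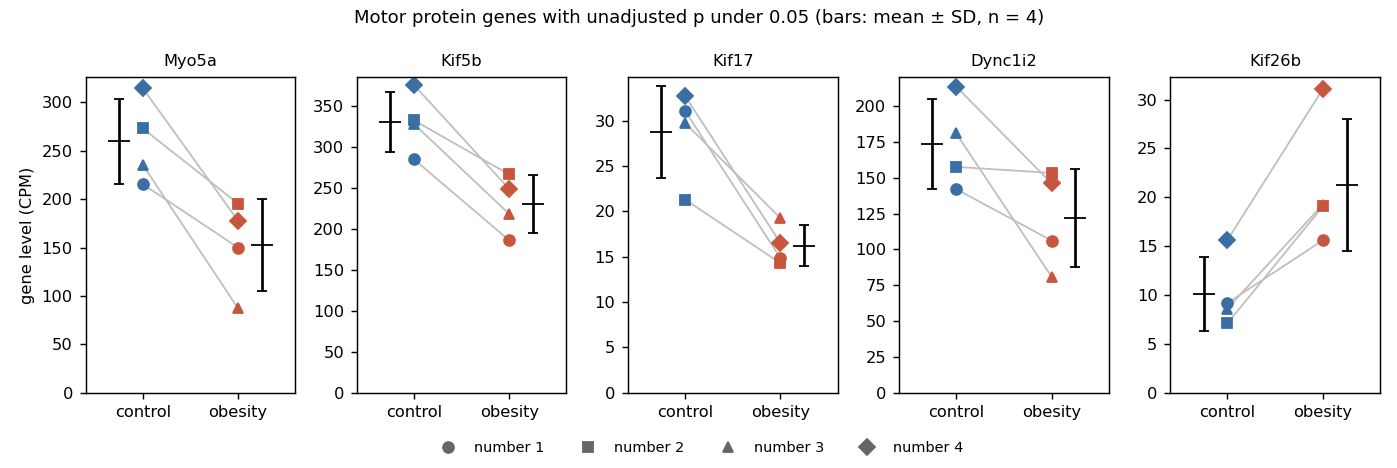
Gene level (CPM) of the 5 motor protein genes with an unadjusted p under 0.05, by library; marker shapes give the rat's number, grey lines join same-numbered libraries, and bars show mean ± SD (n = 4). Myo5a, Kif5b, Kif17 and Dync1i2 are lower and Kif26b is higher in obesity along every joining line.

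The kinesin light chains, which couple kinesin-1 to its cargo, gave no gene or site at an unadjusted p under 0.05 in edgeR. Klc1 had 119, 139, 121 and 81 reads in control and 99, 124, 102 and 91 in obesity. Klc2 had 107, 48, 40 and 48 reads in control and 53, 70, 69 and 78 in obesity, with control 1 far above its group. Klc4 had 3 to 14 reads in a library, too few to show any but a large difference. The log2 fold changes were -0.18 (SE 0.26), 0.09 (SE 0.33) and -0.66 (SE 0.76) in that order.

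In cytoplasmic dynein, the intermediate chain gene Dync1i2 was lower at an unadjusted p under 0.05, and the heavy chain gene Dync1h1 differed by less than its error. Dync1h1, the heavy chain that holds the motor, had 439, 593, 307 and 309 reads in control and 397, 414, 560 and 291 in obesity, with a log2 fold change of -0.04 (SE 0.23). The intermediate chains, which bind dynactin, are encoded by Dync1i1 and Dync1i2. Dync1i1, largely a neuronal chain, was at 297.5 ± 41.9 CPM in control and 312.9 ± 12.4 CPM in obesity, with a log2 fold change of 0.07 (SE 0.19). Dync1i2, the chain found in all cells, had 201, 244, 231 and 287 reads in control and 143, 193, 143 and 221 in obesity. Each obesity library was below the control of its number, and the groups overlapped. Its log2 fold change was -0.51 (SE 0.24), with an unadjusted p of 0.0479 in edgeR without the block. Leaving out single libraries moved this p between 0.0205 and 0.163, above 0.05 without control 2, 3 or 4 or obesity 1 or 3. With the block the unadjusted p was 0.0085 and the adjusted p 0.272. Dync1i2 held 36.9 ± 7.03% of the reads of both intermediate chain genes in control and 27.6 ± 5.03% in obesity, lower in 4 of 4 numbers. The groups overlapped, with control 1 at 29.7% and obesity 2 at 32.1%. That share was not tested, since Dync1i2 had been named for its p in the same libraries. The light intermediate chain gene Dync1li2 had 359, 876, 287 and 612 reads in control and 369, 620, 378 and 639 in obesity, a wide spread that followed the rats' numbers.

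Dynactin, the complex that links dynein to cargo, had 5 of 6 genes with a fold change below 0 and a median of -0.33. Of all 57 motor protein genes, 29 lay below 0. None of the 6 dynactin genes had an unadjusted p under 0.05 in edgeR without the block. The log2 fold changes of Dctn3, Dctn4 and Dctn5 were -0.21 (SE 0.37), -0.37 (SE 0.47) and -0.65 (SE 0.38). Dctn1, its largest subunit, which binds microtubules and dynein, had 918, 1169, 1160 and 751 reads in control and 630, 808, 1439 and 546 in obesity. Obesity 3 had the highest count of all, in the deepest library. In CPM each obesity library was below the control of its number, with 717.5 ± 150.1 CPM in control and 571.3 ± 199.5 CPM in obesity. The log2 fold change was -0.33 (SE 0.24) with an unadjusted p of 0.193 in edgeR. With the block the unadjusted p was 0.0116 and the adjusted p 0.290. Dctn2, the dynamitin subunit of the shoulder, had 73, 86, 50 and 48 reads in control and 22, 75, 95 and 81 in obesity. Dctn6, at the pointed end of the complex, had 94, 82, 114 and 64 reads in control and 46, 92, 87 and 72 in obesity, with 16.6% of its reads at a site on the opposite strand.

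The next question was whether single APA sites differed. No motor protein site passed an adjusted p under 0.1 in edgeR, with 0.00135% of all 73922 sites passing, and the count stayed at 0 with the block, where 0.00541% passed. At an unadjusted p under 0.05 there were 17 of 444 motor protein sites (3.83%), against 3.14% of all sites. Of these, 8 were higher, against 1.72% of all sites, and 9 lower, against 1.41%. At an unadjusted p under 0.01 there were 4 motor protein sites, against 0.502% of all sites. Groups did not overlap at 21 motor protein sites, against 3.11% of all sites, with 8 higher (1.43% of all sites) and 13 lower (1.69%). With the block, 31 motor protein sites had an unadjusted p under 0.05 against 6.09% of all sites. Of those 31, 23 were lower, against 3.31% of all sites, and 8 were higher, against 2.79%. At an unadjusted p under 0.01 the blocked fit gave 16 motor protein sites, against 1.64% of all sites.

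The clearest higher site belonged to Kif5a, on the minus strand of chromosome 7. It was the most 5′ of 19 sites (70536958 to 70536965), with 26, 20, 25 and 20 reads in control and 90, 34, 80 and 62 in obesity. Every obesity library exceeded every control library. The level was 14.4 ± 2.92 CPM in control and 37.4 ± 11.4 CPM in obesity, with a log2 fold change of 1.38 (SE 0.40) and an unadjusted p of 0.00373 in edgeR. It held 5.42 ± 2.99% of Kif5a reads in control and 13.7 ± 8.91% in obesity, while the most used site of the gene, site 16, held 18.8%, 67.4%, 48.0% and 75.3% in control and 16.2%, 55.3%, 51.6% and 71.2% in obesity. The test of whether the sites of Kif5a moved apart (diffSpliceDGE of edgeR) gave an unadjusted p of 0.746, and 0.165 with the block. The gene total differed by less than its SE, as given above.

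Lower sites were found in Dynlrb1, Dctn1, Myo5a and Kif5b. Dynlrb1 encodes a roadblock light chain that sits on the dynein intermediate chains. The more 5′ of its 2 sites (chromosome 3, plus strand, 150778074 to 150778081) had 13, 20, 35 and 14 reads in control and 1, 5, 3 and 1 in obesity, and its other site (150782475 to 150782503) had 163, 133, 150 and 95 against 96, 133, 162 and 111. Only the rarer site separated the groups, with an unadjusted p of 0.000946 in edgeR and, with the block, an adjusted p of 0.197. That site reached the lowest total of any site, 30 reads, mainly through control. The same holds for the 10 reads on average that the naming rule asked for, so its counts are no independent support. In Dctn1 the most 3′ of 10 sites (chromosome 4, plus strand, 114896552 to 114896579) had 37, 60, 44 and 39 reads in control and 11, 15, 31 and 16 in obesity. Its log2 fold change was -1.45 (SE 0.44), with an unadjusted p of 0.00485 in edgeR. In the same gene, site 7 (114887871 to 114887894) had 1, 1, 3 and 0 reads in control and 15, 6, 10 and 13 in obesity. Site 7 reached the lowest total of any site, 30 reads, only through the obesity group. Its low control counts are thus partly set by that minimum and add no support.

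The most used site of Kif5b, site 5 of 14 (chromosome 17, 54197397 to 54197442), was singled out after its values were seen. It held 201, 250, 213 and 314 reads in control and 80, 129, 187 and 191 in obesity. The groups did not overlap. Its log2 fold change was -0.88 (SE 0.34), with an unadjusted p of 0.0205 in edgeR. It accounted for 52.7 ± 6.28% of Kif5b reads in control and 42.3 ± 8.79% in obesity. The test of whether the sites of Kif5b moved apart (diffSpliceDGE of edgeR) gave an unadjusted p of 0.924, and 0.460 with the block. The second most used site of the gene, site 9, had 143, 102, 86 and 62 reads against 114, 75, 74 and 72, and overlapped.

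**Figure D3:**
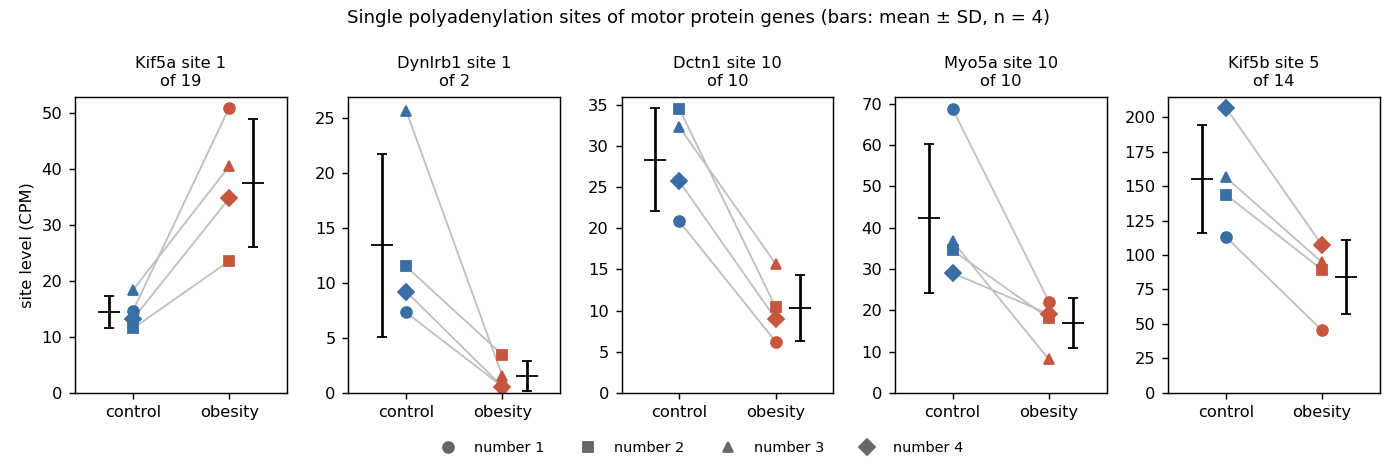
Level (CPM) of 5 single APA sites by library, with the same markers, joining lines and bars (mean ± SD, n = 4) as in the plot of gene levels. The Kif5a site is higher and the other 4 sites are lower in obesity along every line, and the 2 groups do not overlap at any of them. The Kif5a, Dynlrb1, Dctn1 and Myo5a sites were named by a rule that required no overlap. The Kif5b site was singled out after its values were seen.

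Site usage, that is whether the sites of a gene moved apart, was tested in the 49 motor protein genes with 2 or more sites. None passed an adjusted p under 0.1 (diffSpliceDGE of edgeR), where 0.0121% of 8276 genes did. Dynlrb1 (unadjusted p 0.00313) and Dynll1 (0.0446) were under 0.05, 2 of 49 genes against 1.82% of all genes tested. The p of Dynlrb1 depends on the rarer of its 2 sites, which passed the read minima mainly through control. Dynll1 encodes a light chain shared by dynein and myosin V, and reads of its close relative Dynll2 could not be told apart where their sequences match. Its most 5′ site had 1, 1, 0 and 0 reads in control and 6, 3, 6 and 13 in obesity, and its site 2 had 5, 14, 6 and 5 reads against 1, 3, 5 and 0. Its main site, site 3 of 4, had 23, 16, 27 and 16 reads against 18, 29, 45 and 19, and these overlapped. The most 5′ site and site 2 lay near the lowest total of any site, 30 reads. Each reached it mainly through 1 group, so their counts add no support to the p of the gene. With the block there were 4 genes under 0.05, adding Dctn1 (0.0116) and Dync1li2 (0.0222), against 3.08% of all genes tested.

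Motor protein genes carried many ends. The median was 6 sites a gene, against 3 over 10746 protein-coding genes, with up to 30 in Dync1i1, and only 22.9% of protein-coding genes had more than 6. These numbers of sites were not matched for the reads or the length of a gene, and no listed site had under 30 reads in all. The most 3′ site was the most used one in 11 of 49 motor protein genes (22.4%), against 35.4% of 7397 protein-coding genes with 2 or more sites. The most 5′ site was the most used one in 5 of the 49 (10.2%), against 21.9%. These shares were not matched for the number of sites, and with more sites any 1 of them is less likely to be the most used. Internal priming at A-rich stretches is also counted as an end by this method, and it was not checked here. On average the most 3′ site held 24.0 ± 2.63% of a motor protein gene's reads in control and 22.9 ± 1.89% in obesity (47 genes), a difference within the spread, while over 5944 genes the mean went from 28.6 ± 1.24% to 26.2 ± 1.70%. Of the 47 genes, 31 had a lower mean share in obesity, as did 63.6% of the 5944 genes. Groups did not overlap in 2 of the 47, against 3.33% of the 5944, and these were Dctn1, where the share was lower, and Dynlrb1, where it was higher. The Dynlrb1 share depends on the rarer of its 2 sites, which passed the read minima mainly through control. A further 15 sites in 11 genes lay on the strand opposite to most of the gene's reads and held 1.58% of motor protein reads, up to 37.4% of the reads of Myo19.

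Some motor protein sites followed the rat's number rather than its diet, at a share close to that over all sites. Over motor protein sites, deviations from the group mean correlated at 0.305 to 0.422 between same-numbered control and obesity libraries and at -0.262 to -0.0139 between libraries of different numbers, as a description of sites that share libraries. Because such deviations cancel out within a group, positive values at shared numbers force the others to be negative on average. Dync1li2 followed the rat's number most plainly. Its site 6 of 7 (chromosome 19, plus strand, 761862 to 761884) had 192 reads in control 4 and 201 in obesity 4, and 0 to 11 in each other library. Its site 4 (760533 to 760584) held 68.5% and 69.7% of the gene's reads in control 2 and obesity 2, and 10.3% to 37.6% elsewhere. In Dctn1, site 4 (114886617 to 114886650) held 28.8% and 50.6% in the libraries numbered 1 and 1.3% to 8.0% elsewhere.

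By a rule chosen after these values were seen, a site followed a number when both libraries of that number were at least 3-fold above each of the other 6 in CPM. Among motor protein sites with 100 or more reads, 4 of 134 (2.99%) did so, against 2.25% of all such sites. Besides site 6 of Dync1li2 these were Kif3c site 1 with 79 and 84 reads in the libraries numbered 2 and 0 to 11 elsewhere, Myo6 site 16 with 35 and 59 in those numbered 4 and 0 to 5 elsewhere, and Kif21a site 5 with 141 and 277 in those numbered 3 and 21 to 54 elsewhere. What rats of one number have in common is not given in the labels, and its part in these differences was not tested.

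**Figure D4:**
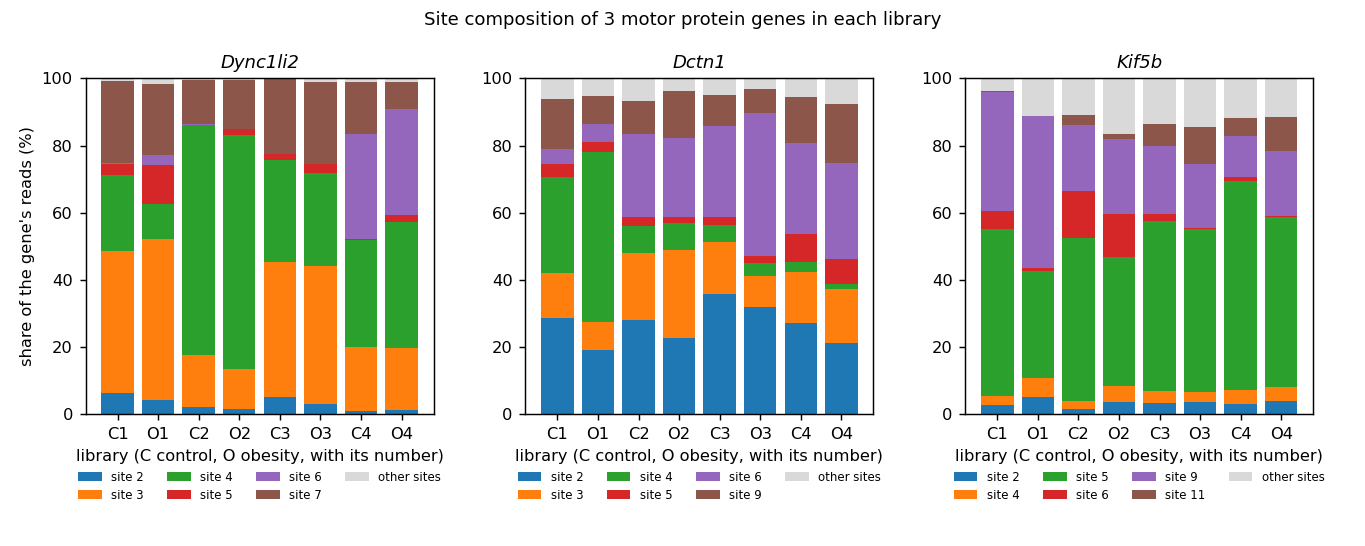
Share (%) of the reads of Dync1li2, Dctn1 and Kif5b at their 6 most read sites and at all other sites, in each library, with control (C) and obesity (O) libraries of the same number side by side. Neighbouring bars of a number resemble each other, as in site 6 of Dync1li2 in the libraries numbered 4, and the share of Kif5b site 5 is lower in obesity within every number. That site was singled out after its values were seen, and site usage of Kif5b had an unadjusted p of 0.924 (diffSpliceDGE without the block).

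As a share of all reads, motor proteins took 0.570%, 0.674%, 0.585% and 0.616% in control and 0.484%, 0.614%, 0.600% and 0.593% in obesity. The difference of means was -0.0384 percentage points, with an SD of 0.0462 in control and 0.0596 in obesity. Obesity library 1 had the lowest share, and without it the difference was -0.00889. That library also had the lowest summed level of 6 oligodendrocyte markers, 12971 CPM against 16785 to 21576 CPM in the other libraries, and the lowest of 4 microglia markers, 38.6 CPM against 78.7 to 127 CPM. Its 4 endothelium markers were the highest, at 122.5 CPM against 52.3 to 91.6 CPM, and the part of these in the difference was not tested. Myosins took 0.1001%, 0.110%, 0.0996% and 0.107% in control and 0.0798%, 0.0916%, 0.0888% and 0.0979% in obesity, without overlap. With Myo5a left out, myosins took 0.0814 ± 0.00309% in control and 0.0766 ± 0.00649% in obesity, and the groups overlapped. Dynein and dynactin shares were lower in 4 of 4 numbers but overlapped between groups. Among reads at protein_coding sites the dynein share was lower in 3 of 4 numbers, and so was the dynactin share of all reads with Dctn1 left out. Kinesins took 0.286 ± 0.0327% and 0.289 ± 0.0365%.

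**Figure D5:**
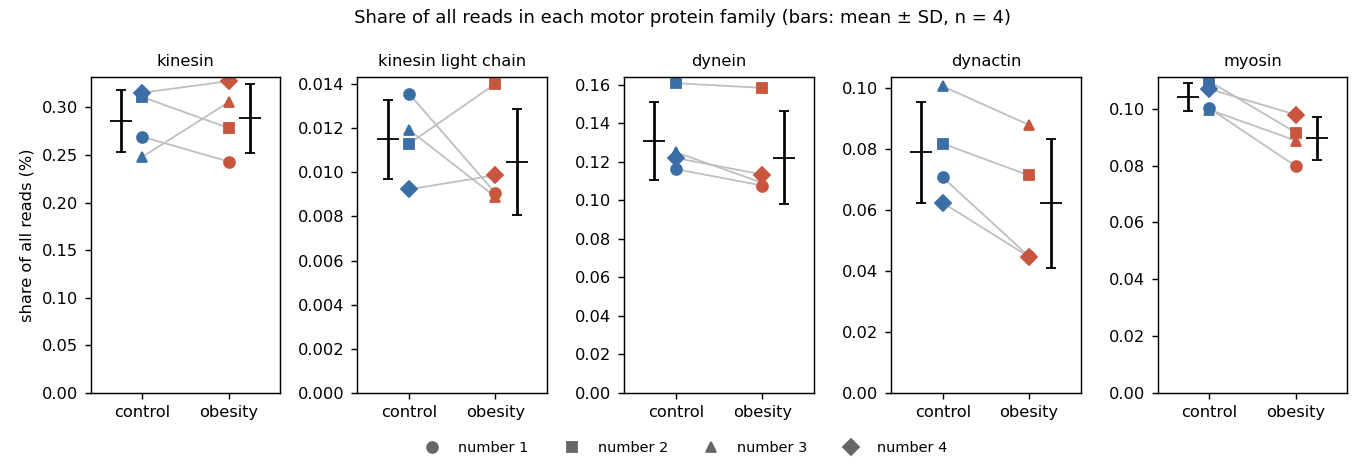
Share of all reads (%) at the sites of each motor protein family by library, with marker shapes for the rat's number, lines joining same-numbered libraries and bars for mean ± SD (n = 4). The 4 myosin values in obesity lie below the 4 in control, while the kinesin values overlap.

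Genes that work with the motors were counted from lists, with no gene passing an adjusted p under 0.1 in edgeR in any of them. Of 28 measured cargo adaptors and motor regulators, 2 were higher and 1 lower at an unadjusted p under 0.05, against 2.77% and 2.52% of all genes, and the median log2 fold change was 0.01. The lower one was Bicd2, an adaptor that activates dynein, at 201.9 ± 30.6 CPM in control and 142.2 ± 21.8 CPM in obesity. The higher ones were Grip1, which ties kinesin-1 to AMPA receptors, at 55.4 ± 6.92 and 98.5 ± 44.4 CPM, and Map7d1, a microtubule protein that recruits kinesin-1, at 297.4 ± 54.6 and 439.2 ± 182.0 CPM. The remaining lists gave 0 genes at an unadjusted p under 0.05, with medians of -0.18 for 6 genes of the dynactin shell, -0.10 for 2 kinesin-14 genes, -0.22 for 8 myosin II chains, 0.45 for 14 axonemal dyneins and -0.23 for 11 tubulins and actins. With the block, these 3 adaptors and, in addition, Hap1, Tuba1a and Tubb3 on the higher side and Actr1a of the dynactin shell, Tuba4a and Tubb5 on the lower side had an unadjusted p under 0.05, where 5.03% of all genes were higher and 5.83% lower.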

How the data were processed

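The authors deposited 1 table of raw read counts per polyadenylation site for 8 WTTS-seq libraries, without normalization. The submitters' processing notes name Bowtie2 2.2.3 and the build Rnor_6.0, and other steps are not given in the sources used here. A line without a site, a column total, was left out. No site total was under 30 reads, so a minimum of 16 reads removed 0 sites. Reads carry no molecular identifiers, so repeated reads of 1 molecule could not be told from reads of separate molecules. The SDs and SEs given include the spread between libraries.

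Members and lists were chosen with earlier results of these data known. Counts of sites, and sums per gene over both strands, were tested over the whole table with edgeR 4.0.16 (robust quasi-likelihood fit, TMM) (R 4.3.3). P-values were adjusted by Benjamini-Hochberg over the 73922 sites or 12255 genes, with a threshold of 0.1. No adjustment was made over the members alone. Site usage was tested with diffSpliceDGE. Alternatives used DESeq2 1.42.0, DESeq2 size factors, filterByExpr, the majority strand and libraries left out. Scripts were tested on simulated data.

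Log2 CPM values, each less its group's mean, correlated at 0.222 to 0.327 between same-numbered libraries and at -0.175 to 0.0493 between others. The numbers were therefore taken to pair the libraries, from the data and the shared numbers in the titles alone. These ranges are not independent, since deviations from a group's mean cancel out within the group. Positive values at shared numbers thus force the others to be negative on average. The main fits, planned without a block, leave this pairing out, and only the fits with the block use it. Over 28 library pairs the lowest chi-square was 3.30 per site, so none agreed within sampling noise.

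Genes named were the 3 with most reads in each family, those at an unadjusted p under 0.05 (up to 6 in each direction), sites whose groups did not overlap, with an unadjusted p under 0.01 and at least 10 reads on average (up to 5 in each direction), and the usage genes under 0.05. Other genes and sites were singled out after their values were seen, among them Kif5c, Kif21b, Myo10, Dctn1 sites 4 and 7, and the sites that follow a number. All 57 symbols matched RefSeq (GRCr8), 56 by symbol and 1 by synonym.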

Additional observations from a re-analysis of the deposited data

Results flagged for a closer look

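Of 68 checks for a library far from the other 3 of its group, 5 passed Dixon's 95% limit, and chance alone singles out about 1 in 20. Obesity library 1 had a motor protein share of 0.484% of all reads, against 0.593% to 0.614% in the other obesity libraries. It was also low in Dctn2, at 16.3 CPM against 53.5 to 59.6 CPM. Obesity library 2 had a dynein share of 0.158% against 0.108% to 0.113%, and control library 2, with the same number, had the highest dynein share of its group at 0.161%. Kif3b was at 265 CPM in control library 3 against 343 to 347 CPM in the other controls. Klc2 was at 75.6 CPM in control library 1 against 31.0 to 35.7 CPM.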

How the results depend on the processing

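The fold changes of Myo5a, Kif5b, Kif17, Dync1i2 and Kif26b kept their direction under every alternative run. These genes had been named for their p in the same libraries, so a kept direction is no independent support. Fold changes of genes near 0, such as Kif5a and Kif3b, changed sign when single libraries were left out. DESeq2's Wald test with the library number as a block, chosen after seeing the data, called 3 motor protein sites (in Kif5b, Kif5c and Dctn1) where edgeR called 0, and 2 genes, Myo5a and Kif5b, shares near those of all sites (6.46%) and genes (5.05%) with an adjusted p in that test. The edgeR fit with the block called 1 gene, Myo5a, and so did the majority strand with the block, also added after seeing the data. The block changed no other call at an adjusted p under 0.1.

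At an unadjusted p under 0.05, sites numbered 31 with the block and 10 after filterByExpr, against 17, and 12 to 32 with single libraries left out, the highest without obesity library 2. Genes numbered 7 with the block, against 5, and 2 to 6 with single libraries left out, with 3 without control library 3, 2 without control library 4 and 3 without obesity library 4. For usage there were 4 genes with the block, against 2, and 1 to 5 with single libraries left out, with 1 without control library 2 or 3 and 5 without obesity library 2. Fits with the block that dropped both libraries of a number, added after seeing the data, called 0 to 3 genes, the highest without number 2 (Myo5a, Kif5b and Dync1i2), where 3 sites and 4.63% of all genes were called as well. Differences in read share and distal usage moved by less than the spread between libraries. With a median of 57 reads a site over 8 libraries, most single sites could show only large differences.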
